A study of Mus musculus with 10 samples.

Results

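Oxidative phosphorylation and TCA cycle genes in HSCs are described here through 49 genes, chosen by symbol from the 26146 genes of the deposited count table. They comprise 9 genes of TCA cycle enzymes, the 4 genes of complex II, 17 genes of complex I, 7 genes of complex III and cytochrome c, 8 genes of complex IV, 2 genes of complex V and 2 genes of the mitochondrial genome, *ND1* and *CYTB*. All 49 were found in the table, and all 49 passed the filter on low counts (edgeR's filterByExpr), as did 14165 genes in all. The lowest count of any of the 49 genes in any library was 76.

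RNA was sequenced in bulk from LSKCD48-CD150+ HSCs, 1 library from each of 5 Cited2 CTL and 5 Cited2 CKO mice, which were on the C57BL/6J background and 8 to 12 weeks old. Cited2 CTL mice carried the floxed allele (Cited2 fl/fl) without Cre, and Cited2 CKO mice carried Cited2 fl/fl with Vav-iCre, whose promoter is active in hematopoietic cells from the time HSCs emerge. The comparison asks how the loss of CITED2, a transcriptional co-regulator, changes gene expression in HSCs. The samples are labelled wildtype and Cited2 KO, and are called CTL and CKO with their replicate numbers here.

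The TCA cycle oxidizes acetyl-CoA in the mitochondrial matrix and passes its electrons to NADH and, through complex II, to ubiquinone. Complexes I, III and IV carry electrons on to oxygen while pumping protons across the inner membrane, and complex V uses the proton gradient to make ATP. Most subunits are encoded in the nucleus, a few core subunits in the mitochondrial genome. Quiescent HSCs are known for relying less on this pathway than the progenitors they give rise to.

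Nuclear genes of this pathway are known targets of the transcription factors NRF1, GABPA (an ETS factor) and YY1. RefSeq windows of GRCm38.p6 from 250 bases before to 50 bases after the start were matched to 37 of the 49 genes and searched on both strands for fixed letters. Some genes had several windows, and a gene was counted where any of its windows held the letters. The NRF1 letters GCGCATGCGC were found for 2 of the 37 genes (5.41%, against 2.22% of 10929 other tested genes). The ETS letters CCGGAAG were found for 7 genes (18.9% against 19.1%), and the YY1 letters AAGATGGCG for 5 (13.5% against 3.32%). An ETS match and a YY1 match can share the letters AAG. The windows with the NRF1 letters (*Cox6a1* and *Uqcrc1*) and that with both ETS and YY1 letters (*Idh3g*) are shown as examples. All matches were exact, so none was ranked above another. Matches are in capitals, with the gene's sense strand written 5′ to 3′. They cover chr5:115348909-115349208 (minus strand) for *Cox6a1*, a subunit of complex IV, chr9:108936398-108936697 (plus strand) for *Uqcrc1*, a core subunit of complex III, and chrX:73786848-73787147 (minus strand) for *Idh3g*, a subunit of isocitrate dehydrogenase.
Cox6a1: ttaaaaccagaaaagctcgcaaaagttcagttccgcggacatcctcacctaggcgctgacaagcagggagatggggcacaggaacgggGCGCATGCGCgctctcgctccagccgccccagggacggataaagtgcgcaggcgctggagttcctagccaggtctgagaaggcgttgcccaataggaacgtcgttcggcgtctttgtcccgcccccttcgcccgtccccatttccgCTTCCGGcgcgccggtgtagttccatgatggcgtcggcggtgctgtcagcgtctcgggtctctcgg
Uqcrc1: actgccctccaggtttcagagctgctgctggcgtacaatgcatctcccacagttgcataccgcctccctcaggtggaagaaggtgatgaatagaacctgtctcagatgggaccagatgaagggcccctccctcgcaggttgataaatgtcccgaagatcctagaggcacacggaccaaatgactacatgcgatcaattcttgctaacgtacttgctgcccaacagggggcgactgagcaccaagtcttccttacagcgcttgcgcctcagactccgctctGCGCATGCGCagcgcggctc
Idh3g: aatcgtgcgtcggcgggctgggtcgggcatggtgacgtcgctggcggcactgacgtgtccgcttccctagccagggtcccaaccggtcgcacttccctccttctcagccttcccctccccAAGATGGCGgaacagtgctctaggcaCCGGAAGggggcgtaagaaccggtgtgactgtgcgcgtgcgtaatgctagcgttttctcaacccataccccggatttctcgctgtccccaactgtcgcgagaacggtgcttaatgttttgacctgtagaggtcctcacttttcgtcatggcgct
A match of letters describes the window and was not tested as a binding site. With the genotypes compared, *Cox6a1*, *Uqcrc1* and *Idh3g* had log2 fold changes of 0.07, -0.11 and -0.09 (CKO against CTL), none of which passed the test.

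Total counts lay between 3058690 and 4548795 per library in CTL and between 3500215 and 4315029 in CKO. The deleted gene was at 101.3, 171, 162, 222 and 160.2 CPM (the count relative to the TMM-normalized size of its library) in CTL 1 to 5 and at 3.80, 4.21, 120.1, 5.00 and 8.30 CPM in CKO 1 to 5. The library labelled CKO 3 thus held 73.6% of the mean CTL level of *Cited2*. Some results are given with and without it, and values include it unless stated otherwise. The log2 fold change of *Cited2* was -2.51 with it (adjusted p = 0.328 in edgeR) and -4.92 without it (adjusted p = 1.82e-06). All 12 HSC markers were detected, at summed levels of 2618 to 2941 CPM in CTL and 2364 to 2673 CPM in CKO, while 7 markers of T and NK cells summed to at most 13 CPM and 6 of B cells to at most 90.8 CPM. Markers of granulocytes and monocytes (10 genes) summed to 181 to 608 CPM in CTL and 165 to 393 CPM in CKO, those of megakaryocytes (7 genes) to 408 to 495 CPM and 387 to 539 CPM, and those of erythroid cells (9 genes) to 58.2 to 134 CPM and 72.0 to 92.9 CPM. Markers of mast cells and basophils (4 genes) summed to 33.8 to 56.4 CPM in CTL and 58.1 to 118 CPM in CKO. Those of dividing cells (8 genes) summed to 1104 to 1389 CPM and 1143 to 1537 CPM. Of these 8, 3 were higher in CKO at an unadjusted p under 0.05 and 0 lower, against 5.8% and 7.08% of all tested genes. Tested HSC markers (12) had 2 higher and 2 lower at this p. Those of granulocytes and monocytes (7) had 1 and 1, and those of mast cells and basophils (2) had 1 and 0. The other lists had 0. Of the 8 marker lists, none had a called gene or a gene at 0 in every library, and the part of these cells in the values below was not tested.

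None of the 49 genes passed the test of a difference between the genotypes (adjusted p under 0.05 and a fold change above 20%, the quasi-likelihood F test of edgeR, Benjamini-Hochberg adjusted over all tested genes). Over all tested genes 32 were called (0.226%), 17 higher and 15 lower in CKO. DESeq2 and limma-voom also called 0 of the 49 genes. DESeq2 called 1.36% of 25016 genes, without the filter on low counts and with any gene lacking an adjusted p taken as not called. Limma-voom called 13 higher and 15 lower of 14165 genes. At an unadjusted p under 0.05, 1 of the 49 genes stood out in edgeR (*Ndufs1*), which is 2.04% of them against 12.9% of all tested genes (5.8% higher and 7.08% lower in CKO). No gene of the 49 had CPM that did not overlap between the genotypes, as 3.33% of all tested genes did (1.35% higher and 1.98% lower in CKO). The log2 fold changes ran from -0.20 (*Ndufv1*) to 0.27 (*Ndufa1*), with 24 above and 25 below 0. Their median was -0.00, against 0.01 over all tested genes. Without the library labelled CKO 3 the median was -0.01, 23 genes were above and 26 below 0, and 0 were called. The 1 gene at an unadjusted p under 0.05 was then *Ogdh*, lower in CKO, in place of *Ndufs1*. This is 2.04% of the 49 genes, against 11.4% of all tested genes. In bulk RNA, fewer cells of a type and less RNA per cell cannot be told apart.

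The intervals of the differences were narrow. For 23 of the 49 genes (46.9%) the 95% interval of the fold change lay within 1.2-fold either way, as for 9.75% of all tested genes. Within 1.5-fold lay 48 of the 49 (98%), against 51% of all tested genes. The exception was *Ndufa1*, an accessory subunit of complex I and the gene of the 49 with the lowest mean CPM in CTL. Precision is lowest where counts are few, and the intervals were not compared with those of genes in the same range of CPM. All intervals include the library labelled CKO 3. The coefficient of variation between CTL libraries had a median of 7.04% over the 49 genes, 12.1% over the 9055 tested genes in the same range of CPM and 17.1% over all tested genes. It was lowest for *Uqcrc2* (2.72%), a core subunit of complex III, and highest for *Sdhd* (28.3%), a membrane anchor of complex II. The 9055 genes were not matched to the 49 on CPM within that wide range, and the part of level in this difference of spread was not tested.

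**Figure D1:**
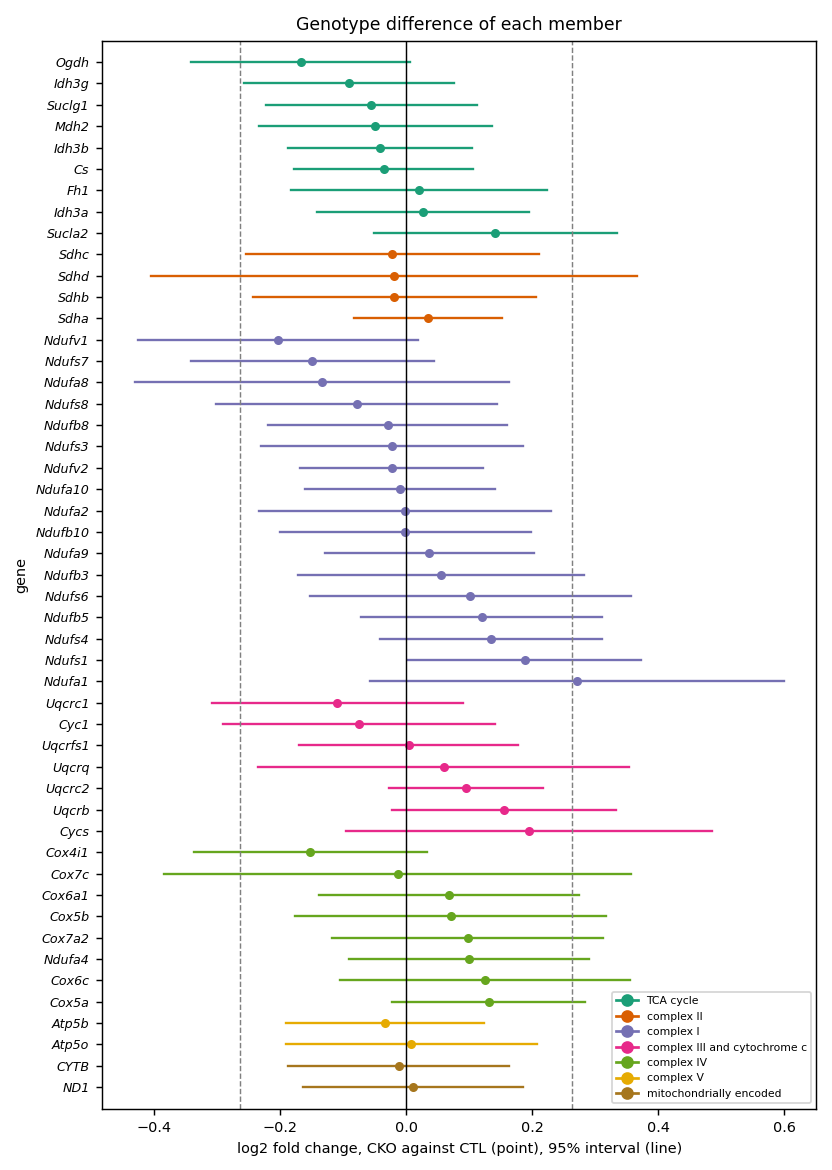
Log2 fold change of each of the 49 genes, CKO against CTL (point), with its 95% interval (line) from edgeR, coloured by role; dashed lines mark 1.2-fold either way and n = 5 libraries per genotype. Points run from -0.20 for Ndufv1 to 0.27 for Ndufa1, and the interval of Ndufs1 alone lies to one side of 0.

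Of the 9 TCA cycle genes, 3 were above and 6 below 0 in log2 fold change (median -0.04), and none passed the test. The part of GC content (below) in these counts was not tested. *Ogdh*, which encodes the first enzyme of the 2-oxoglutarate dehydrogenase complex (chr11:6291633-6356642, plus strand), stood at 239, 279, 246, 255 and 225 CPM in the libraries CTL 1 to 5 and at 227, 240.2, 243, 203 and 195 CPM in the libraries CKO 1 to 5. CKO 4 and CKO 5 lay below every CTL library, and CKO 1 to 3 lay within the CTL range. Its log2 fold change was -0.17 (standard error 0.08, 95% interval -0.34 to 0.01, adjusted p = 0.405 in edgeR). Leaving out the library labelled CKO 3 made it -0.20 (adjusted p = 0.365 in edgeR), then the lowest of the 49 genes. *Sucla2*, the ADP-forming subunit of succinyl-CoA synthetase (chr14:73525319-73596142, plus strand), was at 159, 171, 168, 196 and 189.7 CPM in the libraries CTL 1 to 5 and at 202, 196, 221, 197 and 160.2 CPM in the libraries CKO 1 to 5. CKO 1, CKO 3 and CKO 4 were above every CTL library, and CKO 5 was within the CTL range near its lower end. The log2 fold change of *Sucla2* was 0.14 (standard error 0.09, 95% interval -0.05 to 0.33, adjusted p = 0.543 in edgeR). With a library left out it ran from 0.09 to 0.20. *Suclg1*, the subunit of the same enzyme that both of its forms share, had -0.06. Citrate synthase (*Cs*), fumarase (*Fh1*) and malate dehydrogenase (*Mdh2*) had -0.04, 0.02 and -0.05. The 3 subunits of the NAD-dependent isocitrate dehydrogenase, *Idh3a*, *Idh3b* and *Idh3g*, had 0.03, -0.04 and -0.09.

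Complex II links the cycle to the respiratory chain, and its 4 genes had log2 fold changes from -0.02 to 0.04. *Sdha*, the catalytic flavoprotein (chr13:74322254-74350280, minus strand), was at 405, 391, 385, 370.0 and 394 CPM in the libraries CTL 1 to 5 and at 391, 401, 392.1, 422 and 387 CPM in the libraries CKO 1 to 5. Only CKO 4 was above the CTL range, and none was below it. The log2 fold change of *Sdha* was 0.04 (standard error 0.05, 95% interval -0.08 to 0.15, adjusted p = 0.832 in edgeR). The membrane anchor *Sdhc* (chr1:171127165-171150603, minus strand) was at 126, 106, 93.2, 110.4 and 108 CPM in the libraries CTL 1 to 5 and at 98.9, 89.6, 109, 128 and 109.7 CPM in the libraries CKO 1 to 5. CKO 2 was the lowest and CKO 4 the highest of all 10 libraries, so the CTL range lay inside that of CKO. For *Sdhc* the log2 fold change was -0.02 (standard error 0.11, 95% interval -0.25 to 0.21, adjusted p = 0.953 in edgeR). *Sdhd*, the other anchor, ranged from 83.8 to 174 CPM within CTL alone, and *Sdhb*, the iron-sulfur subunit, had a log2 fold change of -0.02.

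Complex I was represented by 6 nuclear-encoded subunits of the catalytic core and 11 accessory subunits, with *ND1*, a core subunit of the mitochondrial genome, described below. Of these core subunits 1 was above and 5 below 0 (median -0.05), of the accessory subunits 6 were above and 5 below (median 0.04). Fold changes followed GC content (below), and its part in these counts was not tested. With an offset for GC content and length, *Ndufs3* and *Ndufs8* of the core turned above 0. Among accessory subunits *Ndufa2*, *Ndufa10* and *Ndufb10* did so too, and *Ndufb3* turned below 0. *Ndufs1*, the largest subunit and a carrier of iron-sulfur clusters (chr1:63143596-63176833, minus strand), stood at 211, 202, 197, 208 and 199.8 CPM in the libraries CTL 1 to 5 and at 222, 245, 255, 255 and 183 CPM in the libraries CKO 1 to 5. CKO 1 to 4 were above every CTL library, while CKO 5 was below every one. Its log2 fold change was 0.19 (standard error 0.09, 95% interval 0.0030 to 0.37, adjusted p = 0.382 in edgeR). Without CKO 5 it was 0.25 (adjusted p = 0.165 in edgeR), the smallest adjusted p of any of the 49 genes over 20 alternatives. Without the library labelled CKO 3 it was 0.15 (adjusted p = 0.551 in edgeR). Exons of 12 of the 49 genes overlap exons on the other strand, among them *Ndufs1* (*Eef1b2* and *Ino80dos*), *Cox4i1* (*Emc8*) and *Uqcrc2* (*Pdzd9*), and the use of strand in counting is not given in the sources used here.

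*Ndufv1*, the NADH-binding subunit (chr19:4007384-4012806, minus strand), had the lowest log2 fold change of the 49 genes and was at 117, 134, 126, 127 and 135 CPM in the libraries CTL 1 to 5 and at 104, 88.1, 109.9, 120.2 and 133 CPM in the libraries CKO 1 to 5. CKO 1 to 3 were below every CTL library and CKO 4 and CKO 5 within the CTL range. The fitted difference was -0.20 (standard error 0.10, 95% interval -0.43 to 0.02, adjusted p = 0.430 in edgeR). *Ndufa1*, a small accessory subunit encoded on the X chromosome (chrX:37187588-37191163, minus strand), had the highest and was at 25.4, 26.8, 24.1, 19.99 and 25.2 CPM in the libraries CTL 1 to 5 and at 26.6, 28.2, 31.4, 26.8 and 33.4 CPM in the libraries CKO 1 to 5. CKO 2, CKO 3 and CKO 5 were above every CTL library and CKO 1 and CKO 4 just inside the CTL range. Its log2 fold change was 0.27 (standard error 0.15, 95% interval -0.06 to 0.60, adjusted p = 0.488 in edgeR), and 0.25 without the library labelled CKO 3. Of the other core subunits, *Ndufs3*, *Ndufs8* and *Ndufv2* lay between -0.08 and -0.02 and *Ndufs7*, which holds the last iron-sulfur cluster before ubiquinone, had -0.15. Of the other accessory subunits, *Ndufs4*, *Ndufb5* and *Ndufs6* had 0.14, 0.12 and 0.10. *Ndufa8* had -0.13, and *Ndufa2*, *Ndufa9*, *Ndufa10*, *Ndufb3*, *Ndufb8* and *Ndufb10* lay between -0.03 and 0.06.

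Complex III passes electrons from ubiquinone to cytochrome c, and 5 of its 7 genes (cytochrome c included) were above 0 (median 0.06). Here too the part of GC content (below) in this count was not tested. With the offset for GC content and length, *Cyc1* turned above 0 and *Uqcrfs1* below 0. *Uqcrb*, a small accessory subunit (chr13:66900617-66905378, minus strand), was at 90.0, 93.7, 101.1, 89.2 and 84.9 CPM in the libraries CTL 1 to 5 and at 96.3, 107, 100.2, 109 and 98.6 CPM in the libraries CKO 1 to 5. CKO 2 and CKO 4 were above every CTL library and the other 3 lay within the CTL range. The difference of *Uqcrb* on the log2 scale was 0.16 (standard error 0.08, 95% interval -0.02 to 0.33, adjusted p = 0.457 in edgeR). The core subunit *Uqcrc2* (chr7:120635176-120659524, plus strand) was at 219, 211, 219, 213 and 205 CPM in the libraries CTL 1 to 5 and at 229, 234, 232, 228 and 215 CPM in the libraries CKO 1 to 5. CKO 1 to 4 were above every CTL library and CKO 5 lay within the CTL range. The difference for *Uqcrc2* was 0.09 (standard error 0.06, 95% interval -0.03 to 0.22, adjusted p = 0.517 in edgeR). Over all alternatives *Uqcrb* ran from 0.03 to 0.22 and *Uqcrc2* from 0.02 to 0.12. With a library left out, *Uqcrb* ran only from 0.12 to 0.19 and *Uqcrc2* from 0.08 to 0.11. *Uqcrc1*, the partner core subunit, and *Cyc1*, cytochrome c1, lay below 0 (-0.11 and -0.07). *Uqcrfs1*, the Rieske iron-sulfur protein, had 0.00, *Uqcrq* 0.06 and *Cycs*, the mobile carrier cytochrome c, 0.20.

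Complex IV reduces oxygen to water, and 6 of its 8 genes were above 0 (median 0.08). GC content (below) was not tested for its part in this count either, and *Ndufa4* turned below 0 with the offset. *Cox5a* (chr9:57521274-57532426, plus strand), an accessory subunit on the matrix side, was at 117, 109, 113, 109 and 109 CPM in the libraries CTL 1 to 5 and at 121, 119, 127, 115 and 127 CPM in the libraries CKO 1 to 5. Every CKO library except CKO 4 was above every CTL library. Its log2 fold change was 0.13 (standard error 0.07, 95% interval -0.02 to 0.28, adjusted p = 0.467 in edgeR). *Cox4i1*, the largest nuclear-encoded subunit (chr8:120668222-120674207, plus strand), was at 171, 143, 156, 139 and 130.0 CPM in the libraries CTL 1 to 5 and at 125, 128, 132, 146 and 133 CPM in the libraries CKO 1 to 5. CKO 1 and CKO 2 were below every CTL library, and CTL 1 and CTL 3 above every CKO library. The fold change of *Cox4i1* on the log2 scale was -0.15 (standard error 0.09, 95% interval -0.34 to 0.03, adjusted p = 0.491 in edgeR). Over all alternatives *Cox5a* ran from 0.02 to 0.18 and *Cox4i1* from -0.20 to -0.03. With a library left out, *Cox5a* ran only from 0.11 to 0.15 and *Cox4i1* from -0.20 to -0.10. *Ndufa4*, first assigned to complex I and now counted with complex IV, had 0.10. *Cox5b*, *Cox6a1*, *Cox6c* and *Cox7a2* lay between 0.07 and 0.13, and *Cox7c* had -0.01.

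*Atp5b*, the catalytic beta subunit of complex V (chr10:128083273-128090391, plus strand), was at 498, 446, 461, 430.2 and 385 CPM in the libraries CTL 1 to 5 and at 419, 459, 406, 464 and 422 CPM in the libraries CKO 1 to 5. The CKO range lay inside that of CTL, with a log2 fold change of -0.03 (standard error 0.07, 95% interval -0.19 to 0.12, adjusted p = 0.889 in edgeR). *Atp5o*, the subunit that joins the catalytic head to the peripheral stalk, was at 123, 95.2, 106, 98.2 and 102 CPM in the libraries CTL 1 to 5 and at 100.3, 98.2, 100.7, 112 and 116 CPM in the libraries CKO 1 to 5. Here too the CKO range lay inside that of CTL, with 0.01 (standard error 0.09, 95% interval -0.19 to 0.21, adjusted p = 0.979 in edgeR). GENCODE M21 gives 2 overlapping genes of the symbol *Atp5o*, so no position is given for it. *ND1*, a membrane subunit of complex I (chrM:2751-3707, plus strand), was at 427, 358, 367, 340.5 and 318 CPM in the libraries CTL 1 to 5 and at 333, 388, 353, 395 and 354 CPM in the libraries CKO 1 to 5. *CYTB*, the haem-bearing core of complex III (chrM:14145-15288, plus strand), was at 553, 455, 493, 447 and 411 CPM in the libraries CTL 1 to 5 and at 435, 488, 453, 518 and 445 CPM in the libraries CKO 1 to 5. For both, the CKO range lay inside the CTL range, and CTL 1 was the highest and CTL 5 the lowest of the 10 libraries. Their log2 fold changes were 0.01 (standard error 0.08, 95% interval -0.16 to 0.19, adjusted p = 0.968 in edgeR) for *ND1* and -0.01 (standard error 0.08, 95% interval -0.19 to 0.16, adjusted p = 0.967 in edgeR) for *CYTB*.

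The libraries moved in part together. The median deviation of the 49 genes from the CTL mean (log2 CPM) was highest in CTL 1 (0.10) and CKO 4 (0.10) and lowest in CKO 1 (-0.07) and CTL 5 (-0.05), so neither genotype held both extremes. The 49 genes took 0.663% to 0.741% of all counts in CTL and 0.663% to 0.718% in CKO. The 13 mitochondrially encoded subunits took 0.214% to 0.266% in CTL and 0.222% to 0.254% in CKO. CTL 1, which had the highest share in both cases, was the shallowest library, and CTL 5, which had the lowest mitochondrially encoded share, the deepest. The mitochondrially encoded share is a partial count. *COX2*, *COX3*, *ATP6*, *ATP8*, *ND3* and *ND4L* together held only 32 to 52 counts per library in CTL and 33 to 86 in CKO (below).

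**Figure D2:**
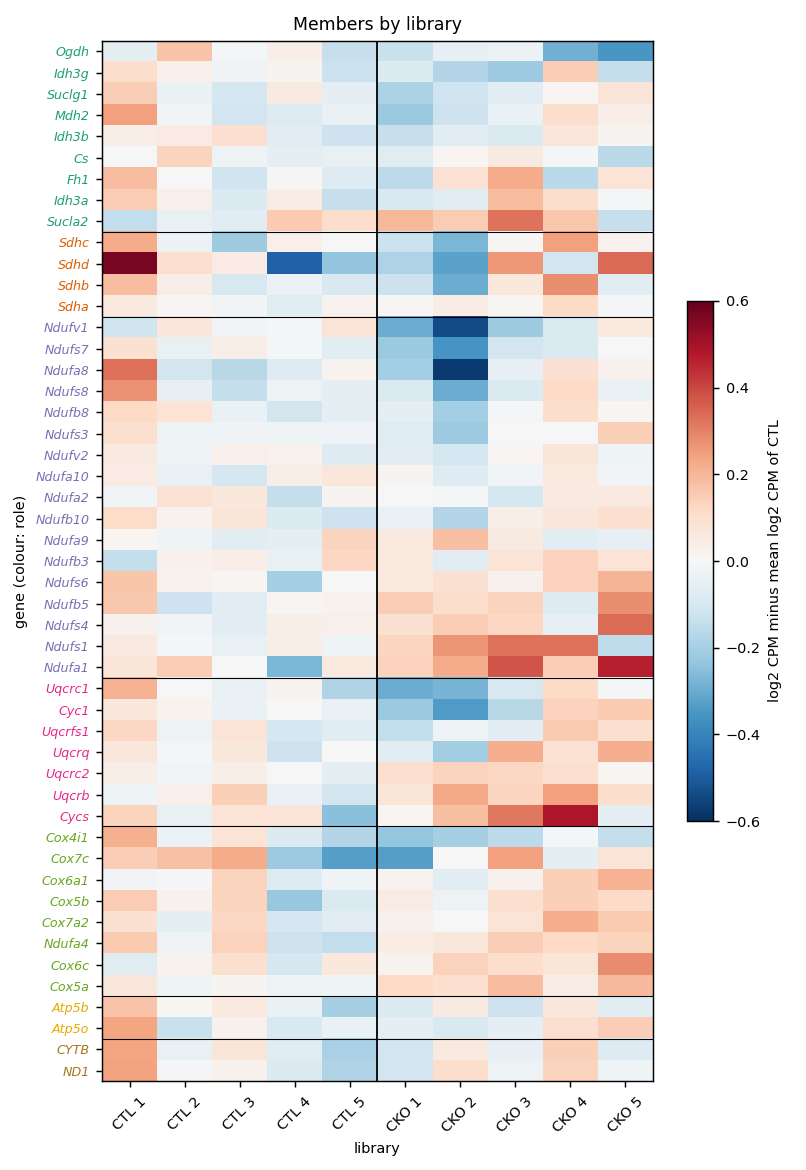
Log2 CPM of the 49 genes (rows, grouped and coloured by role) in the 10 libraries (columns), minus the gene's mean log2 CPM over CTL. The vertical line parts CTL from CKO. In no row do all CKO libraries lie above or below all CTL libraries, and CTL 1 and CKO 4 have the highest median deviations, 0.10 in both.

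Per length, the 49 genes were abundant in HSCs. Their median level in CTL was 100.5 RPKM (CPM per kilobase of the deposited gene length), against 15.7 RPKM over all tested genes, and 48 of the 49 were above the latter. The exception was *Cycs*, at 15.4 ± 1.58 RPKM in CTL and 17.6 ± 2.72 RPKM in CKO (SD, n = 5 each). The highest were *CYTB* at 412 ± 47.4 RPKM and *ND1* at 378 ± 42.4 RPKM in CTL, which did not differ beyond their spread. Among nuclear genes *Atp5b* (236 ± 22.1 RPKM in CTL) and *Cox4i1* (217 ± 23.3 RPKM) were highest, with overlapping spreads. Within the TCA cycle *Idh3g* was highest (170.5 ± 9.89 RPKM) and *Ogdh* lowest (35.6 ± 2.88 RPKM), and among the 17 nuclear genes of complex I *Ndufb8* was highest (151 ± 10.1 RPKM) and *Ndufa1* lowest (49.2 ± 5.24 RPKM). Within complex II *Sdha* was highest (136 ± 4.48 RPKM) and *Sdhc* lowest (92.2 ± 10.1 RPKM), with spreads that overlapped those of *Sdhb* (127 ± 10.4 RPKM) and *Sdhd* (94.1 ± 26.7 RPKM). *Uqcrb* (182 ± 12.1 RPKM) was highest among the nuclear genes of complex III described here, *Cox7c* lowest among the 8 of complex IV (61.9 ± 10.4 RPKM), and *Atp5o* stood below *Atp5b* at 136 ± 14.2 RPKM. Near-identical sequence (at least 97% identity over at least 85 bases of a transcript) exists in other annotated genes for 7 of the 49, *Cycs* with 14 such genes, *Uqcrb* with 3, *Cox7c* with 2 and *Ndufs3*, *Cox5b*, *Cox6c* and *Atp5o* with 1 each, and how reads matching several genes were counted is not given in the sources used here.

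Counts per base of gene length were at most 2 in every library for all but 2 short genes. No gene of 200 bases or more had more than 1.72 counts per base of its length in any library, a value reached by *CYTB*, and the only 2 genes above 2 counts per base were at most 80 bases long. *CYTB* had 1.45 to 1.72 counts per base and *ND1* 1.31 to 1.64, against 0.793 to 0.988 for *Atp5b*, and the median of the 49 genes was 0.411. Keeping 1 read for each start and strand would cap counts at 2 per base. Removal of duplicate reads is not given in the sources used here, and its part in the levels and fold changes was not tested. When counts were expanded as if under that cap, an alternative chosen after seeing the data, *ND1* and *CYTB* had log2 fold changes of 0.14 and 0.12 (adjusted p = 0.482 and 0.475 in edgeR). With these counts 0 of the 49 genes were called, and *Cox5a*, *Ndufs1* and *Uqcrb* were higher in CKO at an unadjusted p under 0.05, which is 6.12% of the 49 genes against 12.9% of all genes tested with these counts.

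**Figure D3:**
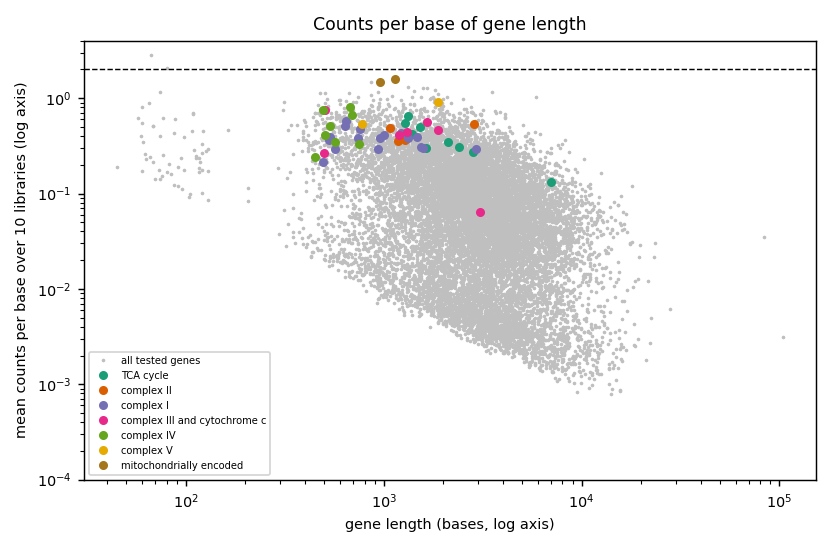
Mean counts per base of gene length over the 10 libraries against gene length (both log axes) for all tested genes (grey) and the 49 genes (coloured by role); the dashed line is 2 counts per base. CYTB and ND1 lie nearest to the line among the 49 genes, at means of 1.60 and 1.48.

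*ND1* and *CYTB* were 2 of 13 mitochondrially encoded subunits, and these fell into separate ranges of CPM. *ND2*, *ND5* and *ND6*, like *ND1* and *CYTB*, have no annotated nuclear copy in GENCODE M21 (at least 99% identity), and these 5 genes were at 116 to 643 CPM in single libraries. *COX2*, *COX3*, *ATP6*, *ND3* and *ND4L* were at 0 to 5.81 CPM, and at least 98.99% of the length of each is repeated in pseudogenes of chromosome 1. The pseudogenes (*Gm28661*, *Gm28437*, *Gm10925*, *Gm28438* and *Gm10222*) lie in one stretch that holds copies of 7 mitochondrially encoded genes (chr1:24611535-24616197, GRCm38). *ND4*, 63.6% covered by *Gm28439*, stood at 174 ± 17.3 CPM in CTL and 178 ± 14.5 CPM in CKO, and *COX1*, 31.3% covered by *Gm29216*, at 418 ± 46.9 and 406 ± 32.0 CPM (SD, n = 5 each). *ATP8* was at 0.875 to 2.72 CPM with no annotated copy of its own, and lies in the mitochondrial genome between *COX2* and *ATP6*. Whether reads matching both sites were left out in counting was not tested.

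**Figure D4:**
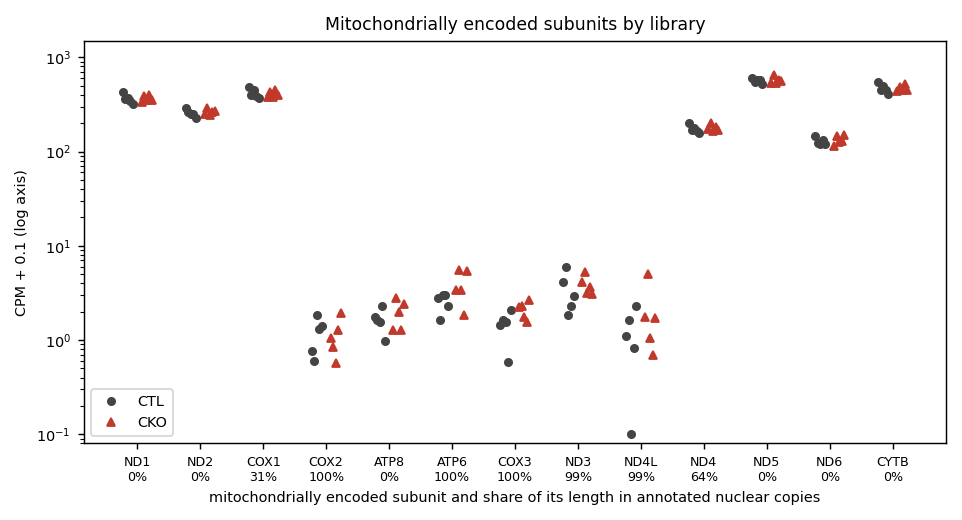
CPM (plus 0.1, log axis) of the 13 mitochondrially encoded subunits in each library, CTL as circles and CKO as triangles, in the order of the mitochondrial genome; under each name, the share of its length that annotated nuclear copies repeat. Genes covered by at least 98.99% lie at 0 to 5.81 CPM, those with 0% at 116 CPM or more, apart from ATP8.

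The small differences between the genotypes followed GC content. Of the 12 genes with a GC content under 45% (longest transcript), 9 were above 0, and of the 17 between 45% and 50%, 11 were. Of the 15 between 50% and 55%, 12 were below 0, and of the 5 at 55% or more, 4 were, all except *Cox6a1*. The same order was seen over all tested genes, of which 74.8% were above 0 in the lowest class of GC content and 19.7% in the highest. Across the 49 genes the correlation of log2 fold change with GC content was -0.53 (Pearson; Spearman -0.57), across all tested genes with a GC content -0.37 (Spearman -0.45), where genes share libraries and are not independent. With an offset fitted to each library for the GC content and length of the genes, it was 0.35 across the 49 genes and -0.09 across all tested genes. Then *Cox7c* was lowest (-0.15) and *Cox6a1* highest (0.23, adjusted p = 0.463 in edgeR), *Ndufs1* had 0.12 (adjusted p = 0.733), and 0 of the 49 genes were called. The offset can also remove a difference of genotype that follows GC content, and the cause of the GC order was not tested.

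**Figure D5:**
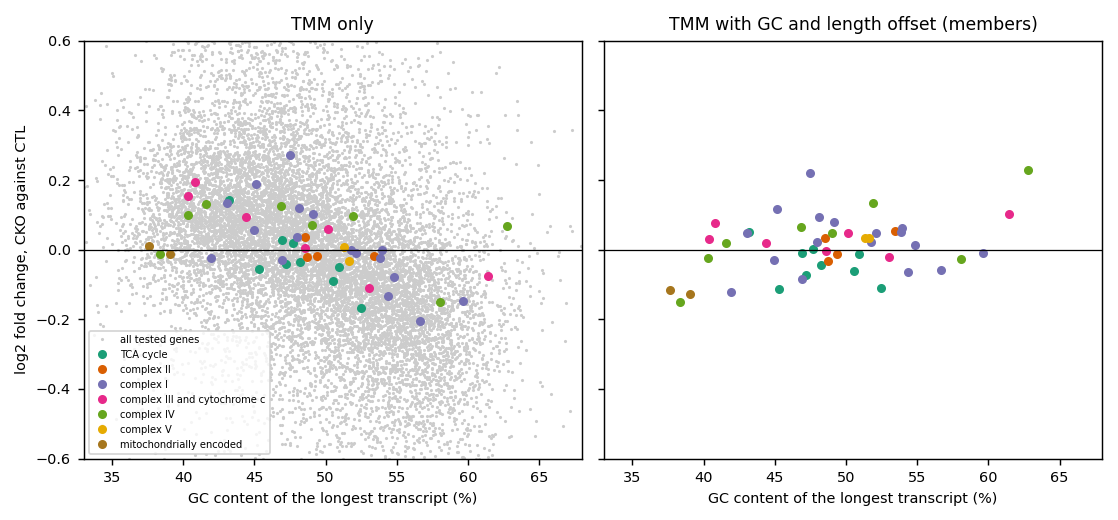
Log2 fold change, CKO against CTL, against GC content of the longest transcript: left, all tested genes (grey) and the 49 genes (coloured by role) after TMM normalization, cut at 0.6 either way; right, the 49 genes after a correction for GC content and length. On the left the points fall from left to right (Pearson -0.53 across the 49 genes), on the right they do not (0.35).

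Other genes of the pathway were taken from hand-written lists of 128 genes, of which 127 were in the table and 121 were tested. Of these, 0 were called by edgeR and limma-voom and 1 by DESeq2 (which called 1.36% of 25016 genes), and 8 (6.61%) had an unadjusted p under 0.05 in edgeR, 7 higher and 1 lower in CKO, against 12.9% of all tested genes. In 3 of the 121 all CKO libraries were above those of CTL, and in 1 all were below. Over all tested genes these shares were 1.35% and 1.98%, so genes without overlap were about as frequent here as elsewhere. The gene called by DESeq2 was *Nubpl*, which delivers iron-sulfur clusters to complex I during assembly. *Nubpl* was at 23.7, 31.1, 27.0, 32.2 and 35.2 CPM in the libraries CTL 1 to 5 and at 40.2, 42.6, 44.0, 45.3 and 42.2 CPM in the libraries CKO 1 to 5. All 5 CKO libraries were above all 5 CTL libraries, with means of 29.9 ± 4.50 CPM in CTL and 42.8 ± 1.93 CPM in CKO (SD, n = 5 each). The log2 fold change was 0.52 (standard error 0.14, 95% interval 0.22 to 0.81, adjusted p = 0.141 in edgeR), and 0.51 (adjusted p = 0.0339) in DESeq2.

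Of the 45 assembly factors, 4 (8.89%) were higher in CKO at an unadjusted p under 0.05 and 0 lower, against 5.8% and 7.08% of all tested genes. Besides *Nubpl* these were *Ndufaf1*, a chaperone of complex I assembly, and *Ttc19* and *Ndufaf5*, named after their values were seen. *Ndufaf1* was at 74.9, 74.3, 76.1, 78.2 and 78.8 CPM in the libraries CTL 1 to 5 and at 93.9, 95.7, 100.7, 79.1 and 88.3 CPM in the libraries CKO 1 to 5. Its CKO and CTL libraries did not overlap either, and the log2 fold change was 0.26 (standard error 0.09, 95% interval 0.07 to 0.45, adjusted p = 0.253 in edgeR). *Ttc19*, a factor of complex III, had 0.71 and *Ndufaf5*, a factor of complex I, 0.47, both with overlapping libraries.

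Of 16 further subunits of complex V, 3 (18.8%) had an unadjusted p under 0.05, all higher in CKO, against 12.9% of all tested genes in both directions and 5.8% higher. They were *Atp5mpl* (log2 fold change 0.33, adjusted p = 0.313 in edgeR), *Atp5md* (0.25, adjusted p = 0.380) and, named after its values were seen, *Atp5k* (0.51, adjusted p = 0.386), small membrane subunits of the enzyme. The genotypes overlapped in each of the 3, and CKO 4 was the lowest CKO library in all of them. Further subunits of complexes I (19 tested), III (3) and IV (6), further TCA cycle enzymes (5) and further mitochondrially encoded subunits (7) had 0 genes at an unadjusted p under 0.05 in edgeR. Their genes with the smallest p were *Ndufv3* (-0.19, the CKO libraries all below those of CTL) and *Ndufb2* (0.14) in complex I, *Uqcrh* (0.05) and *Uqcr10* (0.02) in complex III, and *Cox4i2* (0.49) and *Cox6b1* (0.09) in complex IV. *Dld*, an enzyme shared by several dehydrogenase complexes, had 0.12, and *ATP6* and *ND2* had 0.65 and 0.05.

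Of 20 genes for mitochondrial gene expression and its regulators, 1 was lower at an unadjusted p under 0.05 and 0 were higher, against 7.08% and 5.8% of all tested genes. It was *Polrmt*, the mitochondrial RNA polymerase, at 67.5, 46.5, 52.6, 52.9 and 43.1 CPM in the libraries CTL 1 to 5 and at 39.5, 39.6, 53.4, 30.9 and 39.9 CPM in the libraries CKO 1 to 5. Only the library labelled CKO 3 was within the CTL range, and the log2 fold change was -0.36 (standard error 0.16, 95% interval -0.72 to -0.01, adjusted p = 0.375 in edgeR), and without CKO 3 it was -0.48 with an adjusted p of 0.240 in edgeR. *Slirp*, a protein that stabilizes mitochondrial mRNA, was at 31.2 ± 2.81 CPM in CTL and 37.2 ± 2.57 CPM in CKO (SD, n = 5 each), every CKO library above every CTL library, with 0.25 (standard error 0.13, 95% interval -0.03 to 0.54, adjusted p = 0.446 in edgeR).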

How the data were processed

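The data were analysed from the count table that the authors deposited. Single-ended reads had been aligned to the genome build GRCm38 by HISAT2 and assigned to genes by Rsubread, and the authors deposited these raw counts with the length of each gene. The annotation, the use of strand, multi-mapping reads and duplicate removal are not given in the sources used here. The 10 libraries came from separate mice (5 per genotype) and were grouped by genotype from their labels. Replicates differed by more than sampling noise in all 20 pairs (chi-square per degree of freedom 4.50 to 11.9).

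Counts were filtered with filterByExpr, normalized by TMM and tested in edgeR 4.0.16 (R 4.3.3) by quasi-likelihood with robust dispersion, with Benjamini-Hochberg adjustment over 14165 genes. The common biological coefficient of variation was 25.3%. The deposited total counts of 3058690 to 4548795 set the precision, which is lowest where counts are few. The paper gives a far larger mean number of reads sequenced per sample than these totals. Where the other reads were lost was not tested. A call needed an adjusted p under 0.05 and a fold change above 20%. Log2 CPM used a prior count of 2. Alternatives were DESeq2 1.42.0, its size factors in edgeR, no filter, at least 10 counts in every library, voom in limma 3.58.1, a block for the replicate number, an offset for GC content and length (loess, span 0.5, from GENCODE M21) without and with the block, *Xist* as a covariate and each library left out. Counts expanded for a limit of 2 reads per base were added after the data were seen. The scripts were tested on simulated data. Promoters are from RefSeq (GRCm38.p6). In each role the 2 genes with the smallest p are described with their values, and a gene of another list that the rule also names is not reported here. The 49 genes and all lists were chosen with earlier results of these data known.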

Additional observations from a re-analysis of the deposited data

Results flagged for a closer look

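In 6 of 102 groups of 5 libraries (each of the 49 genes, *Cited2* and the mitochondrially encoded share of counts, in each genotype), 1 library stood apart from the other 4 with a gap of more than 0.71 of the group's range, where chance gives about 1 in 20. *Cited2* itself was at 120.1 CPM in the library labelled CKO 3, against 3.80 to 8.30 CPM in the other 4. *Mdh2* was at 214 CPM, *Ndufs3* at 75.9 CPM and *Ndufs8* at 116 CPM in CTL 1, against 167 to 179 CPM, 69.5 to 70.0 CPM and 87.3 to 94.3 CPM in the other CTL libraries. *Cs* was at 216 CPM in CTL 2 against 189.9 to 197 CPM. *Uqcrc2* was at 215 CPM in CKO 5 against 228 to 234 CPM, and CKO 5 was the only CKO library within the CTL range. CTL 1 was the shallowest library.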

How the results depend on the processing

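None of the 49 genes was called under any of 20 alternatives. Their log2 fold changes stayed between -0.29 (*Ndufv1*) and 0.31 (*Ndufa1*), and their median between -0.02 and 0.03 when a library was left out. The numbers of all genes called higher and lower were 148 and 193 in DESeq2, 15 and 9 with the replicate block, 6 and 3 with the offset, 8 and 2 with offset and replicate block, and 5 to 27 and 3 to 18 with a library left out. The highest of these, 27, was without CKO 3. The other pathway genes called numbered 1 in DESeq2. The count of the 49 genes higher at an unadjusted p under 0.05 was 0 without a filter, in limma-voom and with the replicate block, 3 with expanded counts and 0 to 2 with a library left out. The count lower was 1 without a filter, in limma-voom and with the replicate block, 2 with *Xist* as covariate and 0 to 2 with a library left out. *Cited2* had a log2 fold change of -2.51 over all libraries (adjusted p = 0.328 in edgeR), of -3.99 in limma-voom (adjusted p = 0.0346), and from -4.92 (without CKO 3, adjusted p = 1.82e-06 in edgeR, past the threshold) to -2.23 with a library left out.

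The replicate numbers were not taken to pair the libraries. Same-numbered libraries deviated together with correlations of 0.01, -0.09, 0.21, 0.00 and 0.19, and only replicate 5 correlated best with its own number.

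Over the 20 alternatives 22 of the 49 genes turned direction at least once, 18 of them within 0.05 of 0 before. The other 4 turned with the offset, without and with the block: *Cyc1* (to at most 0.10), *Ndufa4* (to at least -0.023), *Ndufs8* (to at most 0.015) and *Ndufb3* (to at least -0.029). *Sdhd* ran from -0.13 to 0.14 and *Sdhb* from -0.11 to 0.055. The genes described with their values turned as follows. Without a filter *Atp5o* and *ND1* were at -0.0076 and -0.0057. *CYTB* was at 0.0014 with at least 10 counts in every library and 0.0015 in limma-voom, and at 0.12 with expanded counts. With the offset *Atp5b*, *ND1*, *Uqcrh* and *ND2* were at 0.034, -0.12, -0.0083 and -0.089, and with offset and replicate block at 0.035, -0.12, -0.011 and -0.0895. With a library left out, *Sdhc* ran from -0.098 to 0.033, *Atp5b* from -0.084 to 0.0040, *CYTB* from -0.061 to 0.044, *Atp5o* from -0.036 to 0.063, *ND1* from -0.035 to 0.069 and *Uqcr10* from -0.028 to 0.065. The causes were not tested. Within roles, the gene with the highest level was the same by CPM as by RPKM in 4 of 7 roles.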
